A study of Homo sapiens with 82 samples.

Results

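Interferon-stimulated genes are the genes whose transcription rises when a cell detects an interferon, and 41 of them were followed here through HT29 colorectal cancer cells given 1 of 3 nuclear receptor agonists. The 41 were taken by symbol from a fixed list, and each had a single row among the 51838 gene rows of the count tables. No measured value was used to choose them, although the list was drawn up with earlier results of these data known.

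HT29 is an established line of human colorectal adenocarcinoma cells. The cells received the vehicle DMSO, GW3965, T0901317 or rosiglitazone. GW3965, a phenylacetic acid derivative, and T0901317, a sulfonamide, are synthetic agonists of the liver X receptors (LXRs), and rosiglitazone is an agonist of PPARG. Each agonist was used at 10 µM, and RNA was sequenced after 24 h or 48 h, which gave 8 groups of 4 replicates and 32 libraries. All groups are the same cell line, so every difference described is one within a single line, and each treated group is compared with DMSO of the same time point. The labels do not say whether replicates were separate cultures, so p-values measure the spread between these libraries, which may be technical.

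In cells that carry their receptors, type I and type III interferons activate the kinases JAK1 and TYK2, which phosphorylate STAT proteins, STAT2 among them. A complex that holds STAT2 and IRF9 binds the interferon-stimulated response element (ISRE), whereas interferon gamma acts through the gamma-activated site (GAS). Among the products are sensors of viral RNA, transcription factors that extend the response, and effectors that block translation, degrade RNA or trap virions. IRF1 is induced through a GAS and itself drives antigen-processing genes, and epithelial cells keep many of these genes at a low level without added interferon.

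The promoters of 5 members are shown because these genes carry the main differences described further on: IRF1, PARP14 and TAP1 were lower with GW3965 than with T0901317 at both time points, IFIT1 was lower at 48 h, and OAS1 was higher than DMSO with all 3 drugs at 48 h. Sequences are from RefSeq on build GRCh38.p14, from 250 bases before to 50 bases after the start of the gene, on the strand of the gene and 5′ to 3′. Capitals mark matches on either strand to the ISRE core GAAANNGAAA or to the GAS core TTCNNNGAA. IRF1 lies at chr5:132490724-132491023 on the minus strand, PARP14 at chr3:122680589-122680888 on the plus strand, IFIT1 at chr10:89392373-89392672 on the plus strand, TAP1 at chr6:32853655-32853954 on the minus strand and OAS1 at chr12:112906712-112907011 on the plus strand.
IRF1: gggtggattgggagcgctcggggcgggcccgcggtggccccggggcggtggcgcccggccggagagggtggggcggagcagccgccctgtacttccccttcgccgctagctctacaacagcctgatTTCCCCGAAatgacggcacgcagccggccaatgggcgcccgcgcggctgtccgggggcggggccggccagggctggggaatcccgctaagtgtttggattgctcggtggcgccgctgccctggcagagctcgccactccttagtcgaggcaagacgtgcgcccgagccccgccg
PARP14: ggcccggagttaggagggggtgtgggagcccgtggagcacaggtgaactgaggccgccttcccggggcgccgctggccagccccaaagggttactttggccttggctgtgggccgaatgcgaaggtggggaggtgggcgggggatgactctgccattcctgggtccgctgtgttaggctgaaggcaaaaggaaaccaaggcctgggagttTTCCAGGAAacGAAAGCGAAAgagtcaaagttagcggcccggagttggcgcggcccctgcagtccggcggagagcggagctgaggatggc
IFIT1: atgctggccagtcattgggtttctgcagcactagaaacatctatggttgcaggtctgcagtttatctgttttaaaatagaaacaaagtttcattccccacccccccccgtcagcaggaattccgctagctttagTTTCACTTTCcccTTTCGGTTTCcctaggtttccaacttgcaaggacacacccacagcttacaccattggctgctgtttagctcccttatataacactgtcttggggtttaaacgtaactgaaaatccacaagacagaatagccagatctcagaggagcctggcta
TAP1: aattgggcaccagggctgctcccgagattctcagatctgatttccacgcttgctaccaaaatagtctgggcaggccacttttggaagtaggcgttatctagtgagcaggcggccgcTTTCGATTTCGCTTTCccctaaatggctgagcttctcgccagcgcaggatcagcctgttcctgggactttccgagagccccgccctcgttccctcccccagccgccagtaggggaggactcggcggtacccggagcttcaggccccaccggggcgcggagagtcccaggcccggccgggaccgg
OAS1: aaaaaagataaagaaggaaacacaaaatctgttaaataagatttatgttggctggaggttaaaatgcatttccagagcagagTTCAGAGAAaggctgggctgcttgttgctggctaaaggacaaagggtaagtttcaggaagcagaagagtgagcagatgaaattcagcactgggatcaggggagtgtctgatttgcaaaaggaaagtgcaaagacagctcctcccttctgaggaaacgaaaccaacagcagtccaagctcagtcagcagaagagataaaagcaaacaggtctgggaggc

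IRF1 and OAS1 each held 1 GAS match and 0 ISRE matches, IFIT1 and TAP1 held 2 ISRE matches each, and PARP14 held 1 of either kind. The pair in TAP1 overlapped each other. A promoter entry was found for 33 of the 41 members, with DDX58 listed there as RIGI; the entries for DHX58, IRF7, IFIT2, OAS2, OASL, MX2, USP18 and GBP2 were not matched. An ISRE match was present in 19 of the 33 windows, or 57.6%, against 3.57% of the 35116 promoter windows of the same length in the table. GAS matches were present in 7 of 33, or 21.2%, against 7.66% of all windows, and 10 windows held neither. The ISRE core used here asks for exactly 2 bases between its GAAA parts. The stretch gaaacgaaac in the OAS1 window, with 1 base between them, was therefore not counted. The same stretch occurs in the windows of RSAD2, XAF1 and DDX58, which are among the 10 with neither. The core TGANTCA, bound by AP1 factors, was in 3 of the 33 windows, or 9.09%, against 7.71% of all. These matches describe letters in a window and are no evidence of binding.

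**Figure D1:**
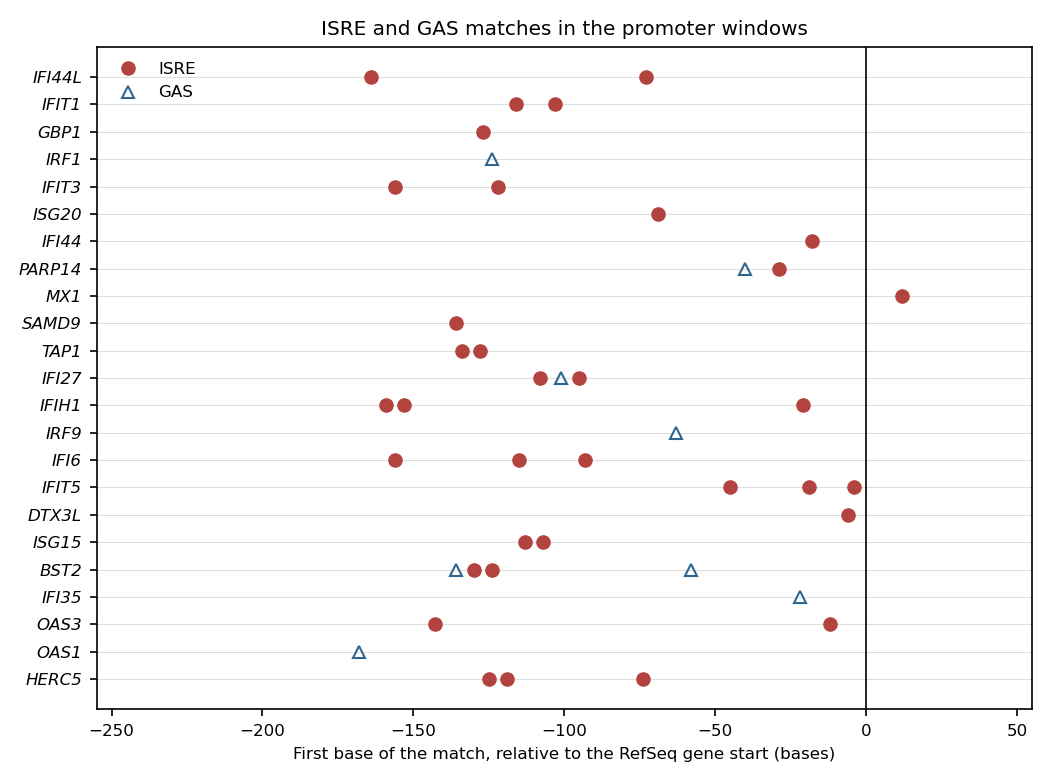
Position of each ISRE match (filled circles) and GAS match (open triangles) in the promoter windows of the members that hold at least 1, in bases from the RefSeq gene start, both strands searched. Matches begin between positions -168 (OAS1) and 12 (MX1), and the match in MX1 alone lies after the start.

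About 21044800 to 51332700 counts were assigned to genes per library. After the filter on low counts, 36 of the 41 members were tested at 24 h among 21781 genes, and 38 at 48 h among 22470 genes. IFI44L, XAF1 and SAMD9L failed at both time points, with largest counts in any library of 5, 9 and 2 at 24 h and 10, 23 and 8 at 48 h. RSAD2 and PSMB9 failed at 24 h alone, with largest counts of 7 and 31. A gene was called when its adjusted p in edgeR's quasi-likelihood test was under 0.01. Known targets of the drugs rose. The cholesterol transporter genes ABCA1 and ABCG1 rose at 24 h by log2 4.61 and 4.67 with GW3965 and by 3.71 and 4.34 with T0901317, and the PPARG targets ANGPTL4 and PDK4 rose by 5.02 and 2.58 with rosiglitazone. All 15 markers of colonic epithelium passed the filter. Of 15 immune cell markers 6 passed, and their summed level ran from 463 to 782 CPM (the counts of a gene relative to the scaled total of its library), almost all of it LYZ, which epithelial cells also express. That sum was 705 to 782 with T0901317 at 48 h and 475 to 498 in the DMSO libraries beside it, and its part in the results was not tested. Of the 6 markers tested, 3 were higher than DMSO at 48 h with GW3965 and with T0901317: LYZ by log2 0.27 and 0.61, CD68 by 0.88 and 0.74, and CD14 by 1.94 and 2.54, from a mean of 0.604 CPM in DMSO to 2.34 and 3.56. The part of these in the results was not tested either. S100A8 and CLEC4C were at 0 in all 8 groups, 3 to 6 of the 15 immune markers were at 0 in every library of a group, and the leukocyte gene PTPRC had group means of at most 0.039 CPM. In the list of 11 fibroblast and endothelial markers 4 passed, where 10 had a row, and its sum ran from 4.21 to 11.3 CPM. In a bulk sample, fewer cells of a kind and less RNA per cell cannot be told apart.

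GW3965 replicate 1 at 24 h stood apart from the other replicates of its group, with a chi-square per gene of at least 37.1 against each of them, where the other pairs of that group had at most 13.2. At 48 h rosiglitazone replicates 1 and 3 differed by 61.7 and T0901317 replicates 1 and 3 by 42.2. Results without GW3965 replicate 1 and without replicate 3 of the others are given beside those with them.

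**Figure D2:**
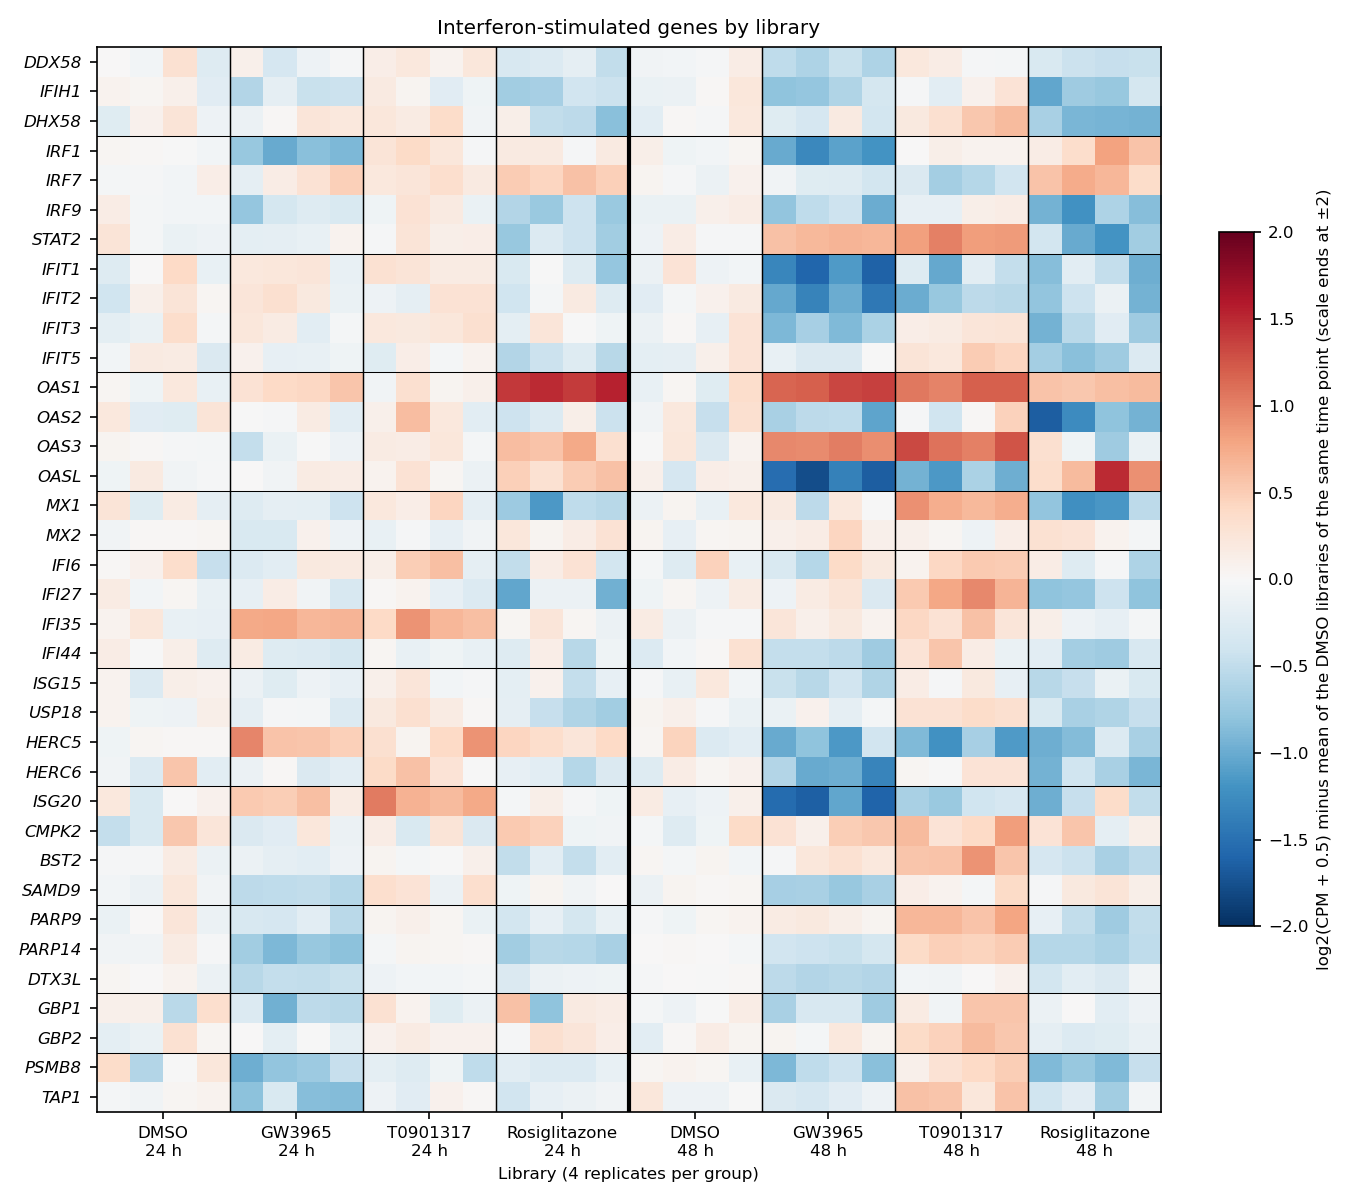
Each column is 1 library and each row 1 of the 36 members tested at both time points, and colour gives log2(CPM + 0.5) minus the mean of the 4 DMSO libraries of that time point, with members grouped by role between the horizontal lines. Red cells for OAS1 fill the 3 treated groups at 48 h, and the GW3965 group at 48 h is mostly blue where the T0901317 group is mostly red.

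At 24 h, fewer members were called with each drug than at 48 h. With GW3965, 3 of 36 members were higher than in DMSO, against 1.92% of all genes tested, and 6 were lower, against 0.891% of all. T0901317 had 2 higher, against 1.4%, and 0 lower, against 0.119% of all genes; edgeR found 0 members lower at an unadjusted p under 0.05 as well, and DESeq2 called 0 with 1 at that unadjusted level. Rosiglitazone had 4 higher, against 5.79%, and 7 lower, against 6.56%. Calls of at least 2-fold numbered 1 of 36 for GW3965, 0 for T0901317 and 1 for rosiglitazone, against 0.546%, 0.289% and 2.19% of all genes. The median log2 fold change of the tested members reached -0.16 for GW3965, 0.10 for T0901317 and -0.20 for rosiglitazone, where the median of all genes was -0.0063, -0.0039 and -0.019. The 3 comparisons share the same DMSO libraries, and so are not independent of each other. Without GW3965 replicate 1, 3 members were higher and 5 lower with GW3965. The number of increases with GW3965 rested on single libraries: IFI35 was the single increase left under library size scaling, OAS1 and HERC5 were the calls lost, and 1 member was called higher when DMSO replicate 1, 2 or 4, GW3965 replicate 2 or 3, or rosiglitazone replicate 1 or 2 was left out. Scaling to library size gave 1 higher and 6 lower.

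IRF1, a transcription factor of antigen-processing and antiviral genes, was lower with GW3965. Its CPM was 111, 110.2, 107 and 104 in the 4 DMSO libraries and 63.6, 53.54, 60.6 and 57.4 with GW3965. With T0901317 it was 129, 141, 127 and 107, and with rosiglitazone 123, 123, 107 and 122. The GW3965 libraries lay below every other library of the time point, with a log2 fold change of -0.88 (SE 0.074, adjusted p = 5.37e-08 in edgeR). PARP14, an ADP-ribosyltransferase induced by interferon, fell with GW3965 and with rosiglitazone. Its CPM was 43.8, 44.05, 51.4 and 45.3 in DMSO, 28.2, 24.49, 27.04 and 25.96 with GW3965 and 28.4, 31.3, 30.9 and 29.2 with rosiglitazone, and 44.99, 47.6, 47.2 and 47.01 with T0901317. The GW3965 and rosiglitazone libraries all lay below the DMSO and T0901317 libraries, with a log2 fold change of -0.80 (SE 0.062, adjusted p = 1.13e-08 in edgeR) for GW3965 and a log2 fold change of -0.63 (SE 0.062, adjusted p = 1.73e-07 in edgeR) for rosiglitazone.

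PSMB8, a catalytic subunit of the immunoproteasome, which cuts peptides for MHC class I, had the largest fold decrease with GW3965 among the called members. Its CPM was 3.72, 1.68, 2.78 and 3.35 in DMSO and 1.16, 1.39, 1.49 and 1.88 with GW3965, so 1 GW3965 library lay above the lowest DMSO library. PSMB8 had a log2 fold change of -0.96 (SE 0.20, adjusted p = 0.00379 in edgeR), and it missed the threshold without GW3965 replicate 1 and when only those 2 groups were fitted. TAP1, the peptide transporter subunit, fell by 0.78 on the log2 scale, SAMD9, an antiviral factor, by 0.54, and DTX3L, the ubiquitin ligase partner of PARP9, by 0.497.

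IFI35, which binds the protein NMI in the interferon response, rose with both LXR agonists. Its CPM was 8.25, 9.25, 7.01 and 6.89 in DMSO, 13.503, 13.6, 12.6 and 12.8 with GW3965 and 10.4, 14.96, 12.7 and 12.1 with T0901317. Every library of either agonist was above every DMSO library, with a log2 fold change of 0.75 (SE 0.11, adjusted p = 0.00012 in edgeR) for GW3965 and a log2 fold change of 0.67 (SE 0.11, adjusted p = 0.000864 in edgeR) for T0901317. The 4 rosiglitazone libraries, at 8.001, 9.34, 8.04 and 7.15, overlapped DMSO. ISG20, an exonuclease that degrades viral RNA, had a log2 fold change of 0.99 with T0901317, a call that was lost without T0901317 replicate 1. HERC5, the main ligase for ISG15 conjugation, rose by 1.35 with GW3965 from DMSO levels of 0.245 to 0.318 CPM.

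The oligoadenylate synthetases sense double-stranded RNA and make the second messenger that activates RNase L. OAS1 rose most with rosiglitazone, from 9.44, 8.64, 10.8 and 8.23 CPM in DMSO to 25.49, 26.9, 25.03 and 27.8. GW3965 libraries held 11.3, 12.4, 12.49 and 13.8, also above all DMSO libraries, and T0901317 libraries 8.78, 11.6, 9.65 and 9.97, which overlapped them. These were a log2 fold change of 1.5001 (SE 0.093, adjusted p = 1.64e-10 in edgeR) with rosiglitazone and a log2 fold change of 0.43 (SE 0.094, adjusted p = 0.00697 in edgeR) with GW3965. OAS3 held 64.6, 63.2, 61.7 and 60.51 CPM in DMSO and 96.4, 92.8, 106 and 78.4 with rosiglitazone (log2 fold change 0.58, SE 0.091, adjusted p = 9.64e-05 in edgeR). OASL, a catalytically inactive relative that enhances RIG-I signalling, went from 4.97, 6.10, 5.01 and 5.25 to 7.62, 6.72, 7.76 and 8.21 (log2 fold change 0.51, SE 0.11, adjusted p = 0.00163 in edgeR). IRF7, the main factor for interferon alpha induction, went from 129, 130.4, 127 and 146 to 189, 180.3, 199 and 186 (log2 fold change 0.501, SE 0.094, adjusted p = 0.000607 in edgeR). In these 4 genes all rosiglitazone libraries were above all DMSO libraries.

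The decreases with rosiglitazone included IRF9 and STAT2, which act in one complex. IRF9, its DNA-binding part, went from 8.98, 7.75, 7.69 and 7.70 CPM to 5.18, 4.60, 5.88 and 4.61 (log2 fold change -0.67, SE 0.13, adjusted p = 0.00069 in edgeR), and STAT2 from 17.9, 14.49, 13.6 and 13.8 to 8.57, 12.3, 11.04 and 8.94 (log2 fold change -0.55, SE 0.11, adjusted p = 0.0013 in edgeR). MX1, a GTPase that traps viral nucleocapsids, went from 3.08, 2.03, 2.85 and 2.15 to 1.31, 0.857, 1.60 and 1.55 (log2 fold change -0.94, SE 0.20, adjusted p = 0.00145 in edgeR). The drug and DMSO libraries did not overlap for any of these. IFIH1, the sensor MDA5, fell by 0.61, USP18, the ISG15 protease, by 0.56, and BST2, which tethers budding virions, by 0.35. Leaving out DMSO replicate 3 left 4 of the 7 decreases in number.

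At 48 h most tested members had a negative log2 fold change with GW3965 and with rosiglitazone, and most had a positive one with T0901317. GW3965 had 3 of 38 members higher than DMSO, against 16% of all genes tested, and 19 lower, against 17.6%. T0901317 had 11 higher, against 13.9%, and 4 lower, against 16.1%. Rosiglitazone had 4 higher, against 12.3%, and 18 lower, against 13.2%. Of the calls, 9 of 38 were at least 2-fold for GW3965, 3 for T0901317 and 2 for rosiglitazone, against 5.73%, 5.35% and 5.87% of all genes. The median log2 fold change of the members was -0.55, 0.29 and -0.48 for the 3 drugs in that order, and that of all genes was near 0 for GW3965, 0.013 for T0901317 and -0.012 for rosiglitazone. Scaling to library size moved the median of all genes by -0.18 for rosiglitazone, where it gave 3 members higher and 24 lower. These comparisons also share their DMSO libraries. Without rosiglitazone replicate 3, rosiglitazone had 4 members higher and 20 lower, with OASL higher by 0.66 and IRF1 by 0.36, both called. Without T0901317 replicate 3, T0901317 had 11 higher and 4 lower.

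**Figure D3:**
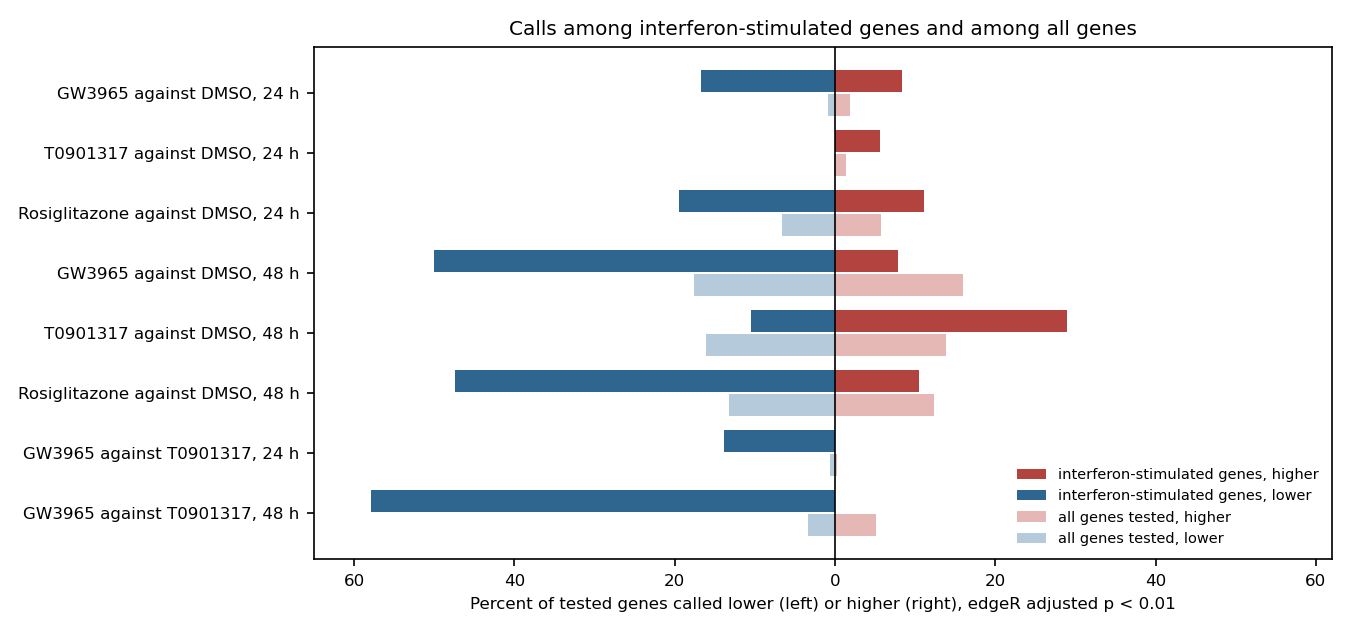
Percent of the tested interferon-stimulated genes (dark bars) and of all tested genes (pale bars) called lower (left) or higher (right) at an adjusted p under 0.01 in edgeR, for each drug against DMSO and for GW3965 against T0901317. At 48 h, 50% of members were lower with GW3965 and 28.9% were higher with T0901317.

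Among the transcription factors, IRF1 was again lower with GW3965. It held 177, 154, 157 and 168 CPM in DMSO and 81.1, 66.48, 78.1 and 71.6 with GW3965, with a log2 fold change of -1.14 (SE 0.10, adjusted p = 2.80e-08 in edgeR). T0901317 libraries held 164, 178, 171 and 173 and overlapped DMSO, and rosiglitazone libraries held 183, 208, 286 and 242, all above DMSO (log2 fold change 0.49, SE 0.10, adjusted p = 0.000715 in edgeR). STAT2 rose with both LXR agonists and fell with rosiglitazone. Its CPM was 14.01, 16.7, 14.7 and 14.7 in DMSO, 22.7, 23.8, 24.4 and 24.02 with GW3965, 26.8, 30.7, 27.002 and 27.6 with T0901317 and 11.46, 7.23, 6.25 and 9.04 with rosiglitazone. Each treated group was apart from DMSO, with log2 fold changes of 0.66, 0.90 and -0.82 and adjusted p of 0.000119, 3.76e-06 and 3.37e-05.

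IRF9, the partner of STAT2, was higher with neither LXR agonist. It held 11.96, 11.9, 14.1 and 14.6 CPM in DMSO, 7.40, 9.09, 9.70 and 6.31 with GW3965 and 6.54, 5.35, 8.34 and 7.06 with rosiglitazone, both groups below DMSO, and 11.7, 11.6, 14.2 and 14.6 with T0901317, which overlapped DMSO. These were a log2 fold change of -0.70 (SE 0.14, adjusted p = 0.000301 in edgeR) with GW3965 and a log2 fold change of -0.95 (SE 0.14, adjusted p = 2.43e-05 in edgeR) with rosiglitazone. IRF7 fell with T0901317, from 243, 229, 214 and 247 to 189.7, 146, 156 and 178 CPM (log2 fold change -0.48, SE 0.089, adjusted p = 0.000192 in edgeR), and rose with rosiglitazone to 347, 388, 368 and 299 (log2 fold change 0.59, SE 0.089, adjusted p = 2.60e-05 in edgeR). With GW3965 it held 221, 198, 194 and 179, overlapping DMSO.

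**Figure D4:**
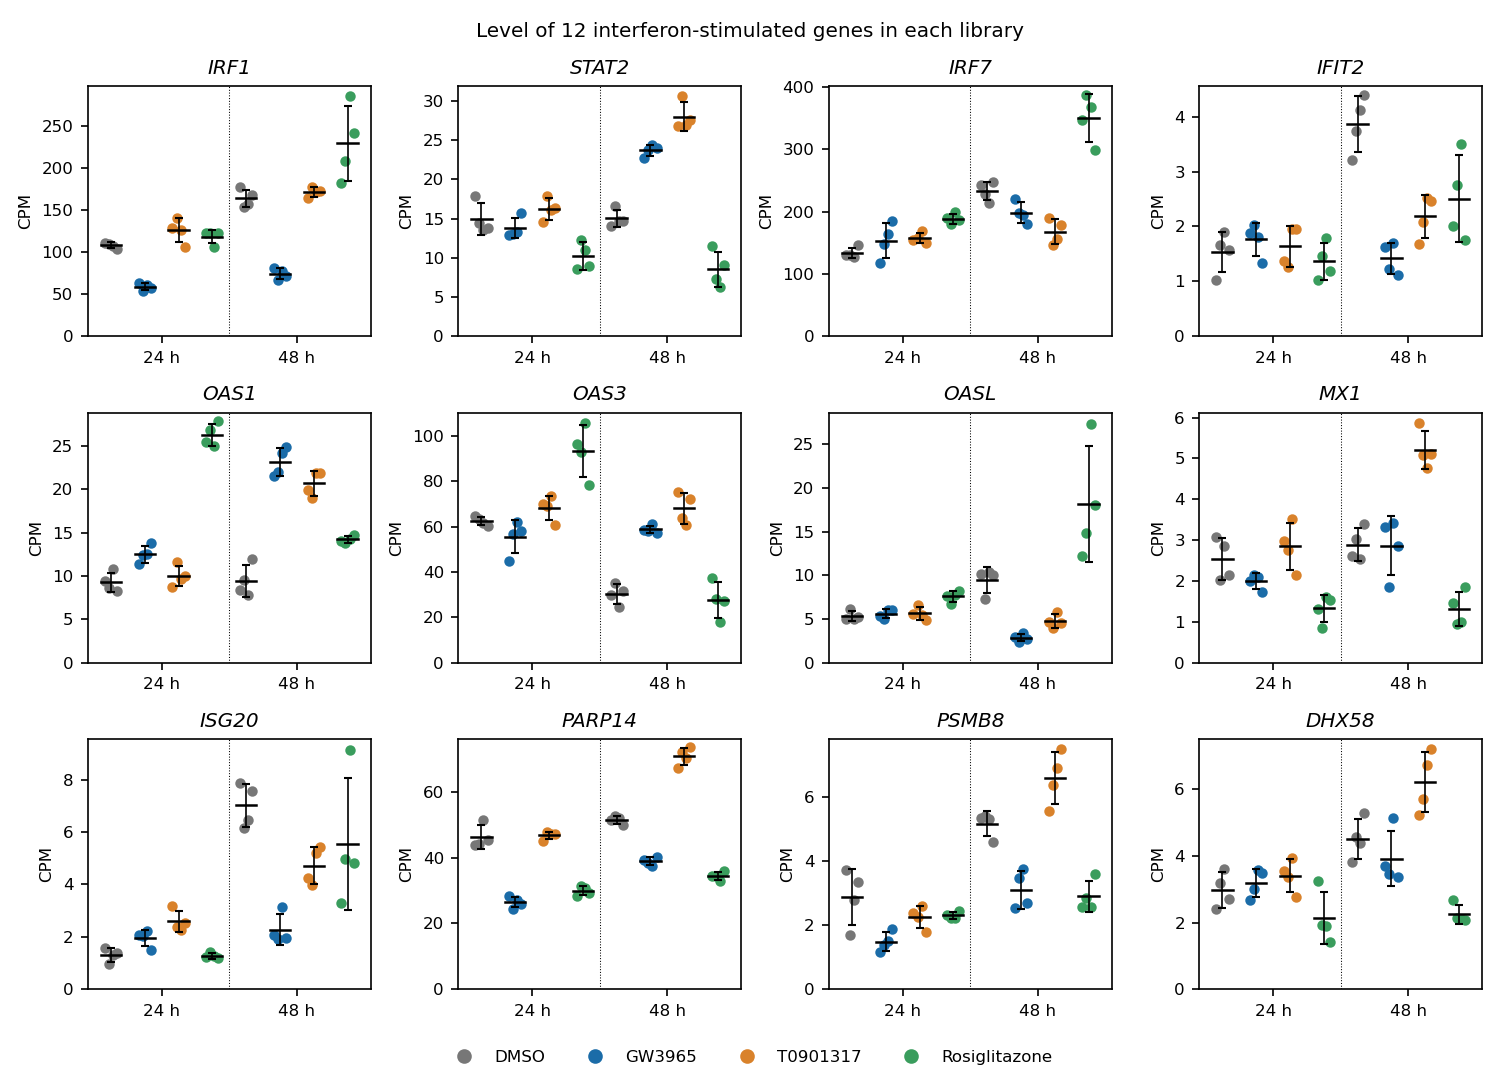
CPM of 12 members in each library, by drug (colour) and time point (left and right of the dotted line), with the mean (horizontal line) and standard deviation (vertical bar) of the 4 replicates. PARP14 and MX1 are highest with T0901317 at 48 h, and OASL is lowest with GW3965 and highest with rosiglitazone at 48 h.

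Members of the OAS family moved in opposite directions. OAS1 was higher with every drug at 48 h: 8.34, 9.58, 7.79 and 12.01 CPM in DMSO, 21.49, 22.03, 24.2 and 24.9 with GW3965, 19.95, 19.05, 21.9 and 21.9 with T0901317 and 14.1, 13.8, 14.3 and 14.7 with rosiglitazone. No treated library overlapped DMSO, and the log2 fold changes were 1.30, 1.14 and 0.60, with adjusted p of 3.26e-09, 2.11e-08 and 0.000128. OAS3 was higher than DMSO with the LXR agonists, at 29.7, 35.1, 24.47 and 31.4 in DMSO, 58.7, 58.3, 61.2 and 57.4 with GW3965 and 75.47, 63.98, 60.6 and 72.2 with T0901317, and held 37.4, 28.2, 18.1 and 27.3 with rosiglitazone, which overlapped DMSO. OAS3 had a log2 fold change of 0.97 (SE 0.15, adjusted p = 8.12e-05 in edgeR) and a log2 fold change of 1.18 (SE 0.16, adjusted p = 1.25e-05 in edgeR). At 24 h OAS3 had held 60.51 to 64.6 in DMSO, 44.99 to 62.03 with GW3965 and 60.9 to 73.5 with T0901317. The LXR agonist groups at 48 h were thus set against a DMSO level lower than that of 24 h. OASL fell with both LXR agonists and rose with rosiglitazone. It held 10.1, 7.31, 10.4 and 10.1 in DMSO, 2.95, 2.40, 3.36 and 2.65 with GW3965, 4.65, 3.93, 5.85 and 4.51 with T0901317 and 12.2, 14.9, 27.4 and 18.1 with rosiglitazone. The 4 groups did not overlap, and the log2 fold changes were -1.73, -0.998 and 0.94, of which the last missed the threshold when rosiglitazone and DMSO were fitted alone. OAS2, at DMSO levels of 0.937 to 1.97 CPM, fell by 1.91 on the log2 scale with rosiglitazone.

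IFIT proteins bind viral RNA ends and block their translation, and with GW3965 3 of the 4 IFIT genes fell at 48 h. IFIT2 held 3.21, 3.74, 4.12 and 4.39 CPM in DMSO, 1.63, 1.23, 1.69 and 1.12 with GW3965, 1.67, 2.08, 2.51 and 2.46 with T0901317 and 2.01, 2.76, 3.51 and 1.76 with rosiglitazone. Both LXR agonist groups lay below DMSO, with a log2 fold change of -1.45 (SE 0.20, adjusted p = 6.58e-06 in edgeR) and a log2 fold change of -0.83 (SE 0.19, adjusted p = 0.00173 in edgeR), and rosiglitazone overlapped it. IFIT1 fell by 2.05 and IFIT3 by 0.92 with GW3965. IFIT5 fell by 0.86 and IFIT3 by 0.69 with rosiglitazone. The IFIT, OAS, MX and GBP genes are families of related sequence, and how reads that fit several members were counted is not given, so the split between relatives is uncertain.

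ISG20 was also below DMSO at 48 h with GW3965, although its GW3965 mean was 1.95 CPM at 24 h and 2.27 at 48 h. It held 7.86, 6.17, 6.46 and 7.56 CPM in DMSO and 2.08, 1.91, 3.14 and 1.96 with GW3965 (log2 fold change -1.62, SE 0.24, adjusted p = 2.79e-05 in edgeR). T0901317 libraries, at 4.26, 3.96, 5.18 and 5.42, also lay below DMSO, but the change of -0.57 did not pass the test. Rosiglitazone libraries were spread widely, at 3.28, 4.96, 9.13 and 4.81. HERC5 fell by 1.498 with GW3965 and by 1.90 with T0901317, at DMSO levels of 0.739 to 1.53 CPM. RSAD2 (viperin) fell by 2.38 with GW3965 at levels of at most 0.428 CPM in any library.

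MX1 rose with T0901317 and fell with rosiglitazone. Its CPM was 2.61, 3.02, 2.54 and 3.40 in DMSO, 3.33, 1.86, 3.42 and 2.86 with GW3965, 5.87, 5.10, 4.77 and 5.10 with T0901317 and 1.46, 0.941, 1.01 and 1.85 with rosiglitazone. GW3965 overlapped DMSO, and the other 2 groups did not, with a log2 fold change of 0.85 (SE 0.18, adjusted p = 0.000746 in edgeR) and a log2 fold change of -1.14 (SE 0.21, adjusted p = 0.000206 in edgeR). PARP14 rose with T0901317 and fell with the other 2 drugs. It held 51.4, 52.53, 51.96 and 49.8 in DMSO, 39.1, 38.47, 37.4 and 40.3 with GW3965, 67.3, 72.02, 70.2 and 73.49 with T0901317 and 34.49, 34.51, 32.9 and 35.995 with rosiglitazone. T0901317 was above DMSO (log2 fold change 0.46, SE 0.051, adjusted p = 3.82e-07 in edgeR), GW3965 below it (log2 fold change -0.41, SE 0.051, adjusted p = 1.91e-06 in edgeR) and rosiglitazone lowest (log2 fold change -0.58, SE 0.052, adjusted p = 3.40e-08 in edgeR).

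PSMB8 held 5.34, 5.42, 5.32 and 4.59 CPM in DMSO, 2.52, 3.47, 3.75 and 2.69 with GW3965, 5.58, 6.38, 6.93 and 7.498 with T0901317 and 2.58, 2.85, 2.58 and 3.61 with rosiglitazone. GW3965 and rosiglitazone libraries were all below DMSO, with a log2 fold change of -0.74 (SE 0.14, adjusted p = 0.000245 in edgeR) and a log2 fold change of -0.84 (SE 0.15, adjusted p = 0.00013 in edgeR). DHX58, the regulator LGP2 of the RNA sensors, held 3.83, 4.58, 4.39 and 5.28 in DMSO and 2.68, 2.14, 2.12 and 2.08 with rosiglitazone (log2 fold change -0.997, SE 0.16, adjusted p = 4.86e-05 in edgeR). Its GW3965 libraries, at 3.71, 3.47, 5.13 and 3.37, and its T0901317 libraries, at 5.23, 5.71, 6.73 and 7.22, overlapped DMSO, and neither change was called. IFI35 held 21.52, 17.8, 18.9 and 18.97 in DMSO and 25.7, 23.503, 29.3 and 22.9 with T0901317 (log2 fold change 0.39, SE 0.085, adjusted p = 0.000805 in edgeR), and 22.8, 20.8, 22.04 and 20.3 with GW3965 and 20.8, 17.9, 17.1 and 18.8 with rosiglitazone, which overlapped DMSO.

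The further members called with GW3965 at 48 h were HERC6, GBP1, IFI44, SAMD9, IFIH1, DDX58 (the sensor RIG-I), DTX3L and ISG15, all lower, from -1.11 for HERC6 to -0.53 for ISG15 on the log2 scale. With T0901317 they were IFI27, PARP9, BST2, TAP1 and GBP2, all higher, from 0.51 for GBP2 to 0.80 for IFI27. With rosiglitazone they were HERC6, IFIH1, IFI27, USP18, BST2, PARP9, DDX58, ISG15 and DTX3L, all lower, from -0.82 for HERC6 to -0.24 for DTX3L. The rosiglitazone and DMSO libraries of ISG15 overlapped despite its call. MX2, IFI6 and CMPK2 were called in none of the 6 comparisons with DMSO, and PSMB9 in none of the 3 at 48 h.

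The direct comparison of the LXR agonists, at the same dose and time, went one way. At 48 h, 22 of 38 members were lower with GW3965 than with T0901317, against 3.43% of all genes tested, and edgeR called 0 higher, against 5.09%. DESeq2 also called 0 higher, and 1 member was higher at an unadjusted p under 0.05 with either tool. At 24 h, 5 of 36 were lower, against 0.606%, and 0 higher, against 0.202%, with 0 higher by DESeq2 and 1 at an unadjusted p under 0.05 with either tool. Leaving out any 1 library gave 18 to 24 members lower at 48 h and 4 to 5 at 24 h, with 0 higher throughout, and 20 at 48 h without T0901317 replicate 3. The median log2 difference of the members was -0.25 at 24 h and -0.68 at 48 h, where all genes had -0.0017 and -0.015. The LXR targets ABCA1 and ABCG1 differed the other way at 24 h, by 0.91 and 0.33.

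The 5 members lower at 24 h were IRF1 (log2 fold change -1.10, SE 0.075, adjusted p = 2.53e-08 in edgeR), PARP14 (log2 fold change -0.82, SE 0.062, adjusted p = 9.04e-08 in edgeR), SAMD9 (log2 fold change -0.76, SE 0.092, adjusted p = 3.44e-05 in edgeR), TAP1 (log2 fold change -0.73, SE 0.13, adjusted p = 0.0036 in edgeR) and DTX3L (log2 fold change -0.43, SE 0.062, adjusted p = 0.000316 in edgeR). The same 5 were called lower at 48 h. Without GW3965 replicate 1, 5 members were called at 24 h. TAP1 missed the threshold at 24 h in at least 1 of the fits with a library left out, and the other 4 members kept their calls in all of them. In SAMD9, GW3965 libraries held 17.01, 17.2, 17.3 and 16.48 CPM at 24 h and 14.4, 14.6, 13.6 and 14.6 at 48 h, and T0901317 libraries 31.3, 29.7, 22.8 and 31.2 and 25.6, 24.3, 22.6 and 30.6, with no overlap at either time point.

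By role, at 48 h the lower members with GW3965 held all 3 RNA sensors, 2 of 4 signal and transcription factors (IRF1 and IRF9), 2 of 4 IFIT genes, MX1 of the 2 MX genes, 2 of the 4 IFI genes tested, ISG15 and HERC6 of the 4 genes of the ISG15 system, 3 of 5 other effectors tested (ISG20, SAMD9 and BST2), both guanylate-binding proteins, all of PARP9, PARP14 and DTX3L, and 2 of 3 antigen-processing genes. IRF1 differed by -1.21 and IFIT1 by -1.47, with adjusted p of 4.76e-07 and 0.00105. IFIT1 held 0.603, 0.410, 0.736 and 0.392 CPM with GW3965 and 1.79, 0.841, 1.85 and 1.45 with T0901317, its lowest T0901317 library lying just above its highest GW3965 library. IFIT3 held 1.74, 2.16, 1.78 and 2.20 and 4.08, 4.18, 4.46 and 4.51, with a gap between the groups (log2 fold change -1.13, SE 0.16, adjusted p = 0.000103 in edgeR). TAP1 held 4.54, 4.40, 4.74 and 5.25 and 8.73, 8.58, 6.73 and 8.63 (log2 fold change -0.79, SE 0.13, adjusted p = 0.00042 in edgeR). TAP1 lies beside PSMB9 and PARP9 beside DTX3L in the genome, and since counting by strand is not stated, reads where neighbours overlap cannot be assigned to one of them.

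None of the 4 OAS genes passed the test between the agonists. For OAS1 the difference at 48 h was 0.16, with a 95% interval from -0.041 to 0.36, and for OAS3 -0.21, from -0.53 to 0.11. OAS2 had the largest difference of the family, -1.07, from -1.73 to -0.40, with an adjusted p of 0.0249 in edgeR. OASL differed by -0.73, from -1.20 to -0.27, and missed the threshold with an adjusted p of 0.0296 in edgeR. Outside the family, STAT2 differed by -0.24, from -0.48 to 0.00012. These intervals do not show that the agonists act alike on these genes. The largest differences that did not pass were -2.31 for PSMB9 and -1.61 for RSAD2, both at very low counts.

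**Figure D5:**
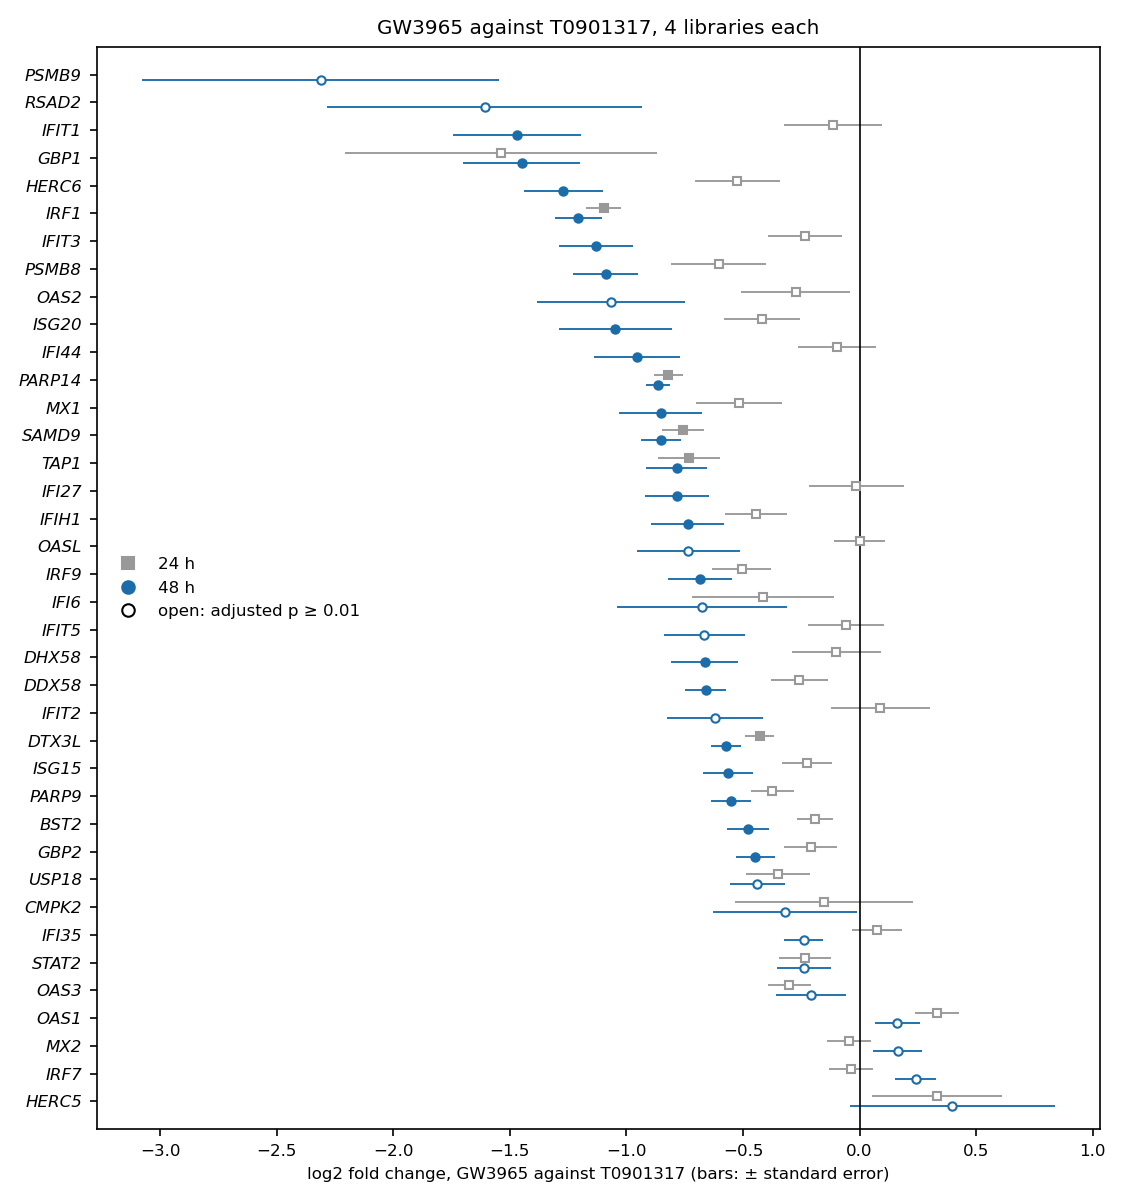
Difference between GW3965 and T0901317 in each tested member, as log2 fold change with its standard error, at 24 h (grey squares) and 48 h (blue circles), with filled symbols for adjusted p under 0.01 in edgeR. Points left of 0 are lower with GW3965, and all 22 filled circles and all 5 filled squares lie there.

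Rosiglitazone was compared with each LXR agonist as well, so that 3 pairs of drugs were set side by side at each time point, each with p-values adjusted over the genes of that comparison. Against GW3965 at 24 h, 7 members were higher, against 4.68% of all genes, and 2 lower, against 6.21%. Against T0901317 at 24 h, 3 were higher, against 6.07%, and 11 lower, against 8.11%. At 48 h rosiglitazone had 8 members higher than GW3965, against 22.4%, and 11 lower, against 22.6%, and 3 higher than T0901317, against 23.7%, and 24 lower, against 24.5%. Without GW3965 replicate 1 the GW3965 comparison at 24 h had 8 calls in place of 9. Among the called members, the largest differences from GW3965 at 48 h were OASL, higher by 2.67, IRF1, higher by 1.63, and STAT2, at -1.48. From T0901317, MX1 differed by -1.99, OAS2 by -1.95 and STAT2 by -1.72, while OASL was higher by 1.94 and IRF7 by 1.06. With library size scaling, the higher level of IRF1 with rosiglitazone at 48 h missed the threshold both against DMSO and against T0901317.

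The response to each drug was then compared between time points in a fit of all 32 libraries, in which 39 members were tested among 23140 genes. For GW3965, 5 members were higher in their response at 48 h than at 24 h, against 9.9% of all genes, and 8 lower, against 11.6%. T0901317 had 7 higher, against 7.51%, and 4 lower, against 9.95%. Rosiglitazone had 0 higher, against 1.37%, with 0 by DESeq2 and 1 at an unadjusted p under 0.05 in edgeR, and 1 lower, against 1.06%. The direction of HERC5 with GW3965 turned between the time points, and the difference in its response was -2.85. In IFIT1 the difference was -2.19, in ISG20 -2.18 and in OAS3 1.14. Each difference holds the change in DMSO as well as that with the drug. The ISG20 mean was 1.30 CPM at 24 h and 7.01 at 48 h in DMSO, and 1.95 and 2.27 with GW3965. OAS3 libraries held 60.51 to 64.6 and then 24.47 to 35.1 in DMSO, and 44.99 to 62.03 and then 57.4 to 61.2 with GW3965. With T0901317 the difference in HERC5 was -2.91. HERC5 had at most 49 counts in any library at 24 h and 51 at 48 h. Its call with GW3965 against DMSO was lost at either time point in at least 1 fit with a library left out. The response of OAS1 was higher at 48 h than at 24 h with GW3965 and T0901317. It was lower with rosiglitazone, where the difference in response was -0.89 with an adjusted p of 0.000127 in edgeR. IRF1 was not called in any of the 3, and its difference with GW3965 was -0.26, with a 95% interval from -0.53 to 0.0021.

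The DMSO cells also changed between the time points. Between 24 h and 48 h in DMSO, 12 members were higher, against 19.7% of all genes, and 3 lower, against 18.8%. ISG20 went from 1.57, 0.953, 1.29 and 1.40 CPM to 7.86, 6.17, 6.46 and 7.56 (log2 fold change 2.39, SE 0.22, adjusted p = 5.14e-11 in edgeR), IFIT2 from 1.03, 1.65, 1.91 and 1.56 to 3.21, 3.74, 4.12 and 4.39 (log2 fold change 1.31, SE 0.21, adjusted p = 2.90e-06 in edgeR) and IFI35 rose by 1.28. HERC5 rose by 1.77. OAS3 went the other way, from 64.6, 63.2, 61.7 and 60.51 to 29.7, 35.1, 24.47 and 31.4 (log2 fold change -1.08, SE 0.14, adjusted p = 9.91e-08 in edgeR). These CPM were scaled within each time point, and the tests used a joint scaling of all 32 libraries. The 2 time points are in separate tables, and time in culture and anything that differed between the 2 sets of libraries cannot be told apart.

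Most interferon genes had few counts or none, interferon epsilon excepted. Of 20 listed ligand genes, 17 had a row, and only IFNE and IFNK passed a filter. IFNK passed at 24 h and in the fit of all 32 libraries, but not at 48 h. IFNB1 had a total of 0 counts over the 16 libraries at 24 h and 4 at 48 h, IFNG had 0 and 0, IFNA1 18 and 22, and the interferon lambda gene IL29 21 and 13. A count of 0 allows up to 3 counts in all, by counting error alone. IFNE, the epithelial interferon epsilon, had 513 and 1712, was called in none of the 6 comparisons with DMSO, and rose between the DMSO time points by 1.502. The totals of IFNK were 127 and 77.

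In the list of receptors, JAK-STAT components and feedback genes, 17 of 20 were tested at 24 h and 19 at 48 h. Against DMSO at 24 h the single call was a lower level of IL28RA with rosiglitazone, at a log2 fold change of -0.58. At 48 h GW3965 had 2 of 19 higher and 6 lower than DMSO, against 16% and 17.6% of all genes, T0901317 3 and 3, against 13.9% and 16.1%, and rosiglitazone 2 and 5, against 12.3% and 13.2%. No gene of this list was called between GW3965 and T0901317 at either time point. IFNGR1, the ligand-binding chain of the interferon gamma receptor, fell by 1.06 with GW3965 and by 0.90 with T0901317. IFNGR2 rose by 0.87 with rosiglitazone. IL28RA, the interferon lambda receptor, rose by 0.48 with GW3965 and 0.75 with T0901317 and fell by 1.01 with rosiglitazone, and its partner IL10RB fell by 0.37 with rosiglitazone. For the type I receptor, IFNAR1 fell by 0.28 with rosiglitazone, and IFNAR2 was not called with any drug.

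A further list of 44 interferon-stimulated genes outside the 41, also drawn up with earlier results known, had 34 tested at 48 h. There GW3965 had 10 higher and 8 lower than DMSO, beside 16% and 17.6% of all genes, T0901317 19 and 3, beside 13.9% and 16.1%, and rosiglitazone 1 and 15, beside 12.3% and 13.2%. GW3965 against T0901317 had 12 lower of 34 at 48 h and 5 of 32 at 24 h, beside 3.43% and 0.606% of all genes, and none higher. The death ligand gene TNFSF10 differed by -1.81 between the agonists at 48 h and rose by 3.45 over DMSO with T0901317. Its level with GW3965 was therefore also above DMSO. IFITM3, which blocks viral fusion, differed by -1.15, and GBP3 by -0.85. All 18 genes of the MHC class I and antigen-processing list were tested. At 48 h T0901317 had 12 of 18 higher than DMSO and none lower, where 13.9% and 16.1% of all genes were called, GW3965 had 7 higher and 5 lower, where 16% and 17.6% were, and rosiglitazone had 3 lower and none higher, where 13.2% and 12.3% were. GW3965 against T0901317 had 10 lower at 48 h and 3 at 24 h, where 3.43% and 0.606% of all genes were, and none higher. ERAP2, which trims peptides in the endoplasmic reticulum, differed by -1.04, PSME1, a proteasome activator subunit, by -0.81, and B2M, the light chain of MHC class I, by -0.67. Of 23 tested genes of nucleic acid sensing, 6 were higher and 6 lower than DMSO at 48 h with GW3965, 7 and 4 with T0901317 and 2 and 7 with rosiglitazone, where the shares of all genes higher and lower were 16% and 17.6%, 13.9% and 16.1%, and 12.3% and 13.2%. Between GW3965 and T0901317 at 48 h, 1 was higher and 5 lower, where 5.09% and 3.43% of all genes were, with DDX60 at -1.60.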

How the data were processed

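RNA-seq of HT29 cells gave 32 libraries, among 82 samples in the labels, and the other samples and their peak files were not used here. The authors deposited counts of reads per gene, 1 table per time point, not normalized. The submitters' processing notes name TopHat, Cufflinks and hg19 without their roles, and the counting program, its strand setting and its handling of shared reads are, in the sources used here, not given. Depth was about 21044800 to 51332700 counts per library, which limits precision for genes with few counts, and floors cover counting error only.

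Counts were filtered with filterByExpr, scaled by TMM and tested with edgeR's quasi-likelihood test (edgeR 4.0.16, limma 3.58.1, R 4.3.3; Python 3.11.15 for summaries) over the 16 libraries of a time point, or over all 32 for responses between time points. Values are CPM on the TMM-scaled library sizes, standard errors are SE, and p-values were adjusted by Benjamini and Hochberg over all genes tested, with a call at under 0.01. Groups came from the labels. Scripts were tested on simulated data. Alternatives were DESeq2 1.42.0, library size and RLE scaling, no filter, a replicate block, summed rows of a symbol, fits of only the 2 groups, a 2-fold rule and leaving out each library; leaving out a library in the comparisons between drugs, between responses and in DMSO was chosen after seeing the data.

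The members and lists were chosen with earlier results of these data known. Per-library values were given for members whose average log2 CPM was 1 or more and that were, per drug and time, among the 3 largest called increases or the 3 largest called decreases, which named 14 members. Other called members were given by log2 fold change, members failing the filter by their largest count, and other gene lists by at most 3 genes, with the receptors and the ligands named whatever their values. ABCA1, ABCG1, ANGPTL4 and PDK4 were named as a check of the drugs, and the markers where a result touched them. One further gene of the receptor and JAK-STAT list that the rule names is not reported here. The per-library values of SAMD9, IFIT1, IFIT3 and TAP1 were added after their values were seen.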

Additional observations from a re-analysis of the deposited data

Results flagged for a closer look

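Among 112 groups of 4 libraries of the 14 members with per-library values, 8, or 7.14%, held a library far from the other 3 by Dixon's test at the 95% level, and chance alone gives about 1 in 20. At 24 h these were IRF1 at 107 CPM in rosiglitazone replicate 3, IRF7 at 146 in DMSO replicate 4, IRF9 at 8.98 in DMSO replicate 1 and STAT2 at 15.7 in GW3965 replicate 4. At 48 h they were DHX58 at 2.68 CPM in rosiglitazone replicate 1, OASL at 7.31 in DMSO replicate 2, ISG20 at 3.14 in GW3965 replicate 3 and PSMB8 at 4.59 in DMSO replicate 4.

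The response to a drug differed between 48 h and 24 h, by the interaction term of the edgeR fit over 32 libraries at an adjusted p under 0.01, in 13 of 39 members for GW3965, 11 for T0901317 and 1 for rosiglitazone. Of all genes tested, 9.9% were higher and 11.6% lower in this way for GW3965, 7.51% and 9.95% for T0901317, and 1.37% and 1.06% for rosiglitazone. For GW3965 the difference in log2 fold change was 0.78 in STAT2, 0.87 in OAS1, 1.14 in OAS3 and 0.40 in PARP14. It was -1.64 in IFIT2, -1.81 in OASL, -0.59 in IFI35 and -2.18 in ISG20. For T0901317 it was 0.79 in STAT2, 1.04 in OAS1, 1.05 in OAS3 and 0.45 in PARP14, and -0.71 in IRF7, -1.07 in OASL and -1.56 in ISG20. For rosiglitazone it was -0.89 in OAS1. All of these differences hold the change in DMSO between the time points as well as that with the drug.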

How the results depend on the processing

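No result changed direction under any alternative run. Of 2093 recomputed values of named members, 2011 stayed on their side of the threshold and 82 missed it. For GW3965 at 24 h, the members called higher fell from 3 to 1 under library size scaling, a fit of only the 2 groups and the 2-fold rule, which left 0 lower. The 2-fold rule left 0 higher for T0901317 and 1 higher and 0 lower for rosiglitazone at 24 h; at 48 h it left 1 higher and 8 lower for GW3965, 2 and 1 for T0901317 and 0 and 2 for rosiglitazone. The response to rosiglitazone differed between time points in 2 members with DESeq2 and 2 with library size scaling, in place of 1. The median log2 fold change of the members moved under library size scaling to -0.21 for GW3965 and -0.29 for rosiglitazone at 24 h and to -0.66 for rosiglitazone at 48 h, and to -0.46 for GW3965 at 48 h when only the 2 groups were fitted, where 36 members were tested. For the other moves the cause was not tested.

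With each library left out in turn, GW3965 at 24 h had 1 to 3 members higher, T0901317 at 24 h 1 to 2 higher (1 without T0901317 replicate 1), rosiglitazone at 24 h 4 to 8 lower (4 without DMSO replicate 3), and the response to rosiglitazone 1 to 3 members (3 without rosiglitazone 48 h replicate 1 and 2 without replicate 3). The median ran from -0.18 to -0.12 for GW3965 at 24 h, -0.29 to -0.14 for rosiglitazone at 24 h, 0.20 to 0.32 for T0901317 at 48 h and -0.55 to -0.45 for rosiglitazone at 48 h. Of the 22 members lower with GW3965 than with T0901317 at 48 h, IFIH1, DHX58, MX1 and ISG20 were lost in at least 1 such fit.

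With the replicate number as a block, the members called higher with GW3965 at 24 h fell from 3 to 1 and the members lower with rosiglitazone than with GW3965 at 24 h from 2 to 1, and no other count of members higher or lower moved by more than 1.5 times. Libraries with the same number deviated together little, with a median correlation of 0.015 over 24 pairs at 24 h, of which 2 were over 0.1, and 0.014 at 48 h. The highest was 0.17 at 24 h and 0.098 at 48 h. Correlations this weak do not show that the numbers pair samples, and they cannot exclude it.

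Depth limits IFI44L, XAF1, SAMD9L, RSAD2 and PSMB9 most, whose differences were not detectable or rest on few counts.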
